A study of Mus musculus with 12 samples.

Results

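The genes described here encode 10 transcription factors, or partners of them, that act in early T cell development: Gata3, Bcl11b, Bcl11a, Runx1, Runx3, Cbfb, Ikzf1, Ikzf2, Ikzf3 and Myb. They were chosen by gene symbol, by a rule that names no measured value, although earlier results of these data were known when the set was drawn up. All 10 have a row among the 23366 symbols of each deposited table. Total RNA depleted of ribosomal RNA was sequenced in 12 libraries of Beko cells, a mouse pre-T cell line, in 3 experiments with 2 treated and 2 control libraries each. In the first, cells were exposed to DAPT, a γ-secretase inhibitor, at 10 µg/ml for 24 h, against DMSO for 24 h. In the second they were exposed to apicidin, an inhibitor of histone deacetylases, at 0.01 µg/ml for 24 h, against a separate set of DMSO libraries. In the third, cells infected with plasmids for a short hairpin RNA against Hdac3 (shHdac3, labelled as 1 hairpin) were set against cells with a scrambled hairpin, both sampled 96 h after puromycin. The study asked which genes depend on Notch, by way of DAPT, and what the deacetylase HDAC3 does at them, by way of apicidin and the hairpin. All groups are 1 cultured cell line, not thymus tissue, and no 2 experiments shared a control library.

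Notch signalling begins T lineage specification in the thymus, and a small set of transcription factors then fixes it. GATA3, a zinc finger factor, is needed from the earliest T cell precursors onward and is dosage sensitive. BCL11B closes the commitment step and restrains stem cell and natural killer programmes, whereas its relative BCL11A acts in progenitors and B cells. RUNX1 and RUNX3 bind DNA through the Runt domain, and CBFβ, the product of Cbfb, is their shared non-DNA-binding partner. Ikaros (Ikzf1), Helios (Ikzf2) and Aiolos (Ikzf3) are zinc finger factors that recruit chromatin remodelling and deacetylase complexes, and Ikaros is known to restrain Notch target genes in thymocytes. MYB supports progenitor proliferation and survival and is normally lowered as thymocytes mature.

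The libraries held 37237080 to 42815304 reads assigned to genes in the DAPT experiment, 21766984 to 29652001 in the apicidin experiment and 24673559 to 29004315 in the hairpin experiment. Values are normalized reads, which are reads divided by 1 size factor per library within an experiment. The hairpin's own target, Hdac3, stood at 774 and 819 in the shHdac3 libraries against 2012 and 1930 in the scrambled ones. Ptcra, a Notch target gene for a pre-T cell receptor chain, stood at 1531 and 1586 with DAPT against 7897 and 7696 with DMSO. All 12 pre-T cell markers examined, among them Ptcra, Cd3e, Lck and Rag1, were at 10 or more normalized reads in every library. Their summed level was lower in treated than in control libraries, at 116943 to 118882 with DAPT against 143428 to 146667, 63767 to 63830.1 with apicidin against 92482 to 93033, and 69449 to 70683 with shHdac3 against 96028 to 96142. Rag1 was the highest of the 12 in every group and carried most of the fall of the sum in each experiment. Its mean was 42119 with DAPT against 61532, 20385 with apicidin against 38609, and 24164 with shHdac3 against 39097. Not all markers went with the sum: Thy1 stood at 20499.8 and 21353 with DAPT against 16189 and 15746, and Cd4, Cd8a and Cd5 were also higher in both DAPT libraries, as Thy1, Cd5 and Il2ra were in both shHdac3 libraries. Of 8 B lineage markers, Pax5, Ebf1 and Ms4a1 were at 0 in every library, and the summed level of the 8 was 1.82 to 30.5 in every group. Of 8 myeloid markers only Itgam reached 10. Their summed level was 466 to 532 with DAPT against 241 to 246 with DMSO, 751 to 799 with apicidin against 509 to 535, and 368 to 396 with shHdac3 against 368 to 392. The summed level of 8 erythroid and mast cell markers was 1758 to 1764 with DAPT against 658 to 742, 704 to 719 with apicidin against 748 to 795, and 2586 to 2629 with shHdac3 against 1182 to 1275. Cpa3 was the highest of these in every group. It carried most of the differences with DAPT, at 1314 and 1262 against 302 and 272, and with shHdac3, at 2396 and 2392 against 981 and 924. With apicidin Cpa3 stood at 457 and 468 against 475 and 478, and Gata1 at 123 and 115 against 147 and 151. Epor was below both controls in both shHdac3 libraries, the Gata1 and Klf1 values of shHdac3 and scrambled libraries overlapped, and Hbb-b1, Hba-a1 and Mcpt1 were at 0 throughout. Of 8 natural killer and innate lymphoid markers, Ncr1, Klrd1 and Klrk1 were at 0 in every library. Their summed level was 326 to 390.2 with DAPT against 301 to 305, 296 to 297 with apicidin against 226 to 234, and 225 to 233 with shHdac3 against 274 to 281. Zbtb16 was the highest of these 8 in every group, with a mean of 228 with DAPT against 189 and 156 with apicidin against 120. The fall with shHdac3 lay mainly in Nkg7, at 23 and 18 against 48 and 56. The part of all these marker shifts in the changes described below was not tested. In bulk RNA, fewer cells of a type cannot be told apart from less RNA per cell.

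Expressed per kilobase of exon, the measured members spanned more than an order of magnitude in the control libraries, with Myb highest and Runx3 lowest. In the DMSO libraries of the DAPT experiment Myb stood at 3328 and 3367 normalized reads per kb, Ikzf1 at 2469 and 2551, Cbfb at 2118 and 2323 and Bcl11b at 1198 and 1242. Gata3 followed at 655 and 675, Ikzf3 at 522 and 543, Runx1 at 363 and 369, Ikzf2 at 227 and 238 and Runx3 at 128 and 143. The order was the same in all 6 control libraries, and no neighbours in it overlapped within a control group. The closest pair elsewhere was Cbfb and Bcl11b, at 1022 and 1091 against 940 and 1001 per kb in the DMSO libraries of the apicidin experiment. Among the treated libraries the order differed only in the 2 with apicidin, in which Gata3, at 1026 and 1011 per kb, stood above Bcl11b at 1015 and 981 and Cbfb at 874 and 914. There Gata3 and Bcl11b overlapped. Bcl11a had 0 reads in all 12 libraries, as did 5616 (24%) of the symbols, so its level is only bounded by 3 reads, equal to 2.64 to 3.41 normalized reads per library. Bcl11a could not be tested in any comparison.

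**Figure D1:**
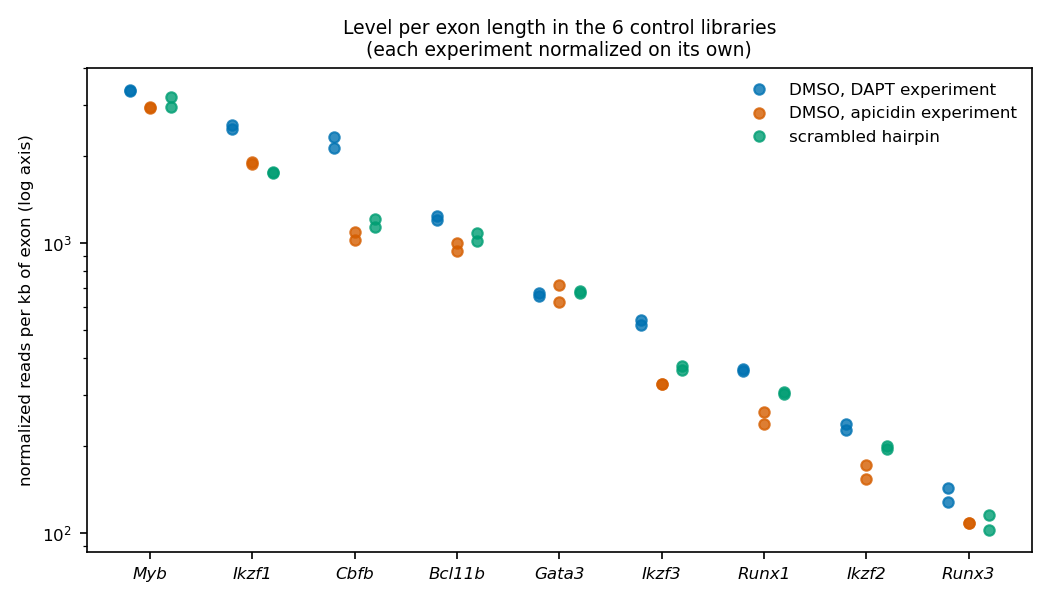
Normalized reads per kb of exon (log axis) for the 9 detected genes in the 6 control libraries, 1 point per library, coloured by experiment. Myb is highest and Runx3, at 102 to 143 per kb, is lowest in every library.

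The 250 bases upstream of a listed transcription start are shown for genes that moved together or apart: Gata3 and Ikzf1, which were higher under all 3 treatments, Cbfb and Myb, whose changes with apicidin and shHdac3 differed, and Runx3, which holds matches to both RUNX and RBPJ or Ikaros motifs. They are RefSeq promoter sequences of mouse build GRCm38.p6, 5′ to 3′ on the gene's strand. Capitals mark matches, on either strand, to 4 motifs: TGGGAA, the core shared by RBPJ and Ikaros sites, TGTGGT for RUNX factors, AGATAA for GATA factors and AACTG for MYB.
Gata3, chr2:9878601-9878850, minus strand: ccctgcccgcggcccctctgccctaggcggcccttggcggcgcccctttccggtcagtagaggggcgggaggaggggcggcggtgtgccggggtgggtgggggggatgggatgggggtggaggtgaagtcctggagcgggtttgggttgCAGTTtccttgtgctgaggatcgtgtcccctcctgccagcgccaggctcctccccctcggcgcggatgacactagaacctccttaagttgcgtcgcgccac
Ikzf1, first listed start, chr11:11685675-11685924, plus strand: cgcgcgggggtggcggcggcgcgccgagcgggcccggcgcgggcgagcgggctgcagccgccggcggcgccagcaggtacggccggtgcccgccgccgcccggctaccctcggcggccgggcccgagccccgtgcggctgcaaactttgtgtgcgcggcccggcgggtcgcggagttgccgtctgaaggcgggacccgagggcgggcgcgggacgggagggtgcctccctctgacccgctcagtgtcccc
Ikzf1, the other listed start, chr11:11689927-11690176, plus strand: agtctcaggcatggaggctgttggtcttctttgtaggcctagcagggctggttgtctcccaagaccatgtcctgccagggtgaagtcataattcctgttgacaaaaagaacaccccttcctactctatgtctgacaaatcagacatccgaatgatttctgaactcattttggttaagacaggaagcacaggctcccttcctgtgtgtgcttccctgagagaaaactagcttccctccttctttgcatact
Runx3, first listed start, chr4:135120395-135120644, plus strand: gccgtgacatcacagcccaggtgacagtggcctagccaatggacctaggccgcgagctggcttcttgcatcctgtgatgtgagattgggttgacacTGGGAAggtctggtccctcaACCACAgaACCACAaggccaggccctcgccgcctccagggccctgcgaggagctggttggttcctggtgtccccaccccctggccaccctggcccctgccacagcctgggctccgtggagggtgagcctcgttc
Cbfb, chr8:105170424-105170673, plus strand: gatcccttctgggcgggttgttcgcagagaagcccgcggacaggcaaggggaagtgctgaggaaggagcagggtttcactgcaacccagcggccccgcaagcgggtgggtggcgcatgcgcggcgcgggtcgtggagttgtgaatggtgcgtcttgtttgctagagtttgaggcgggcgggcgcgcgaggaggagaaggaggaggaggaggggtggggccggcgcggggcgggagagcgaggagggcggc
Myb, chr10:21160985-21161234, minus strand: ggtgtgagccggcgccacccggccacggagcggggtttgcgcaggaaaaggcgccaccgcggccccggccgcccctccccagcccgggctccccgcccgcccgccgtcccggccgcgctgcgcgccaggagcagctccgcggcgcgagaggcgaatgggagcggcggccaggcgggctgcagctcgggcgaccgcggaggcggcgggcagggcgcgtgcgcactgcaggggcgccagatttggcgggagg
Of the 10 genes, 8 had an entry, with 11 listed starts in all. TGGGAA was found upstream of 2 of the 11 starts, those of Bcl11a and the first of Runx3, against 21.6% of 32851 promoters of the same length. TGTGGT was found at 1, the first Runx3 start, where it occurs on the opposite strand in 2 copies that begin 134 and 126 bases before the start, against 14% of all promoters. AACTG was found at 3, those of Gata3, Bcl11b and 1 start of Runx1, against 39.1%, and AGATAA at none, against 9.99%. The TGGGAA match cannot be assigned to RBPJ or to Ikaros, since both read the same letters. These matches are letters in a short window and were not tested for binding.

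With DAPT, 8 of the 9 measured members were higher and none was lower at an adjusted p under 0.05 (limma on log2 values, Benjamini-Hochberg over all 12840 genes tested). Over all genes tested, 43.2% passed, 20.1% higher and 23.1% lower. In this and the later comparisons, all genes tested include many at levels below every measured member, where changes are harder to call. No share among genes of like level was computed. The members' median log2 fold change was 0.30, against 0.0014 over all genes. With apicidin, 4 members were higher and 1 was lower, where 38.1% of 12463 genes passed, 18.2% higher and 19.9% lower, and the members' median was 0.14 against 0.0016. With shHdac3, 6 were higher and none was lower, where 41.9% of 12482 genes passed, 22.5% higher and 19.4% lower, and the median was 0.21 against 0.0002. Upper-quartile scaling moved the share of higher calls over all genes from 53.8% to 43.5% with shHdac3, and the members' calls there to 5 higher and 1 lower. With DAPT it moved that share from 46.6% to 56.5%, and 9 members were then higher. Gata3, Ikzf1 and Ikzf2 were higher in each of the 3 comparisons, as were 2.35% of the 12204 genes tested in all of them. Cbfb also passed in all 3, but with opposite signs. The change of each gene with its SE is plotted below by experiment, followed by the values in each library.

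**Figure D2:**
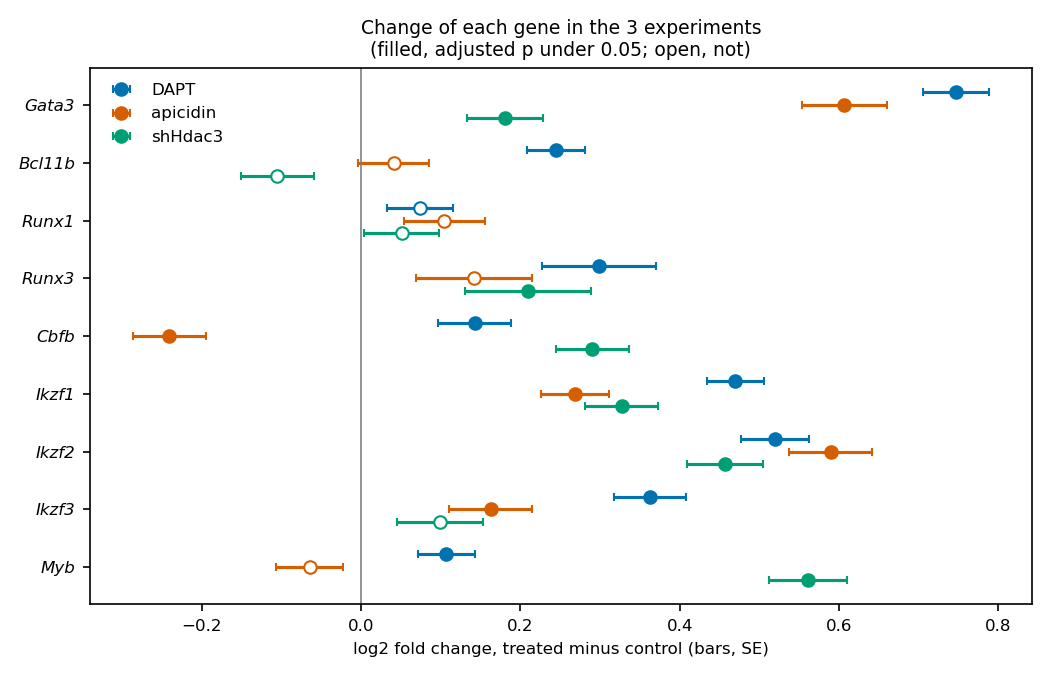
Log2 fold change, treated minus control, of the 9 measured genes with DAPT, apicidin and shHdac3, with the SE of the limma fit as bars. Filled points passed an adjusted p of 0.05. Gata3, Ikzf1 and Ikzf2 lie to the right of 0 in every experiment, and Cbfb lies at -0.24 with apicidin and 0.29 with shHdac3.

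Gata3 showed the largest change of any member, with DAPT. It stood at 3575 and 3598 normalized reads with DAPT against 2106 and 2169 with DMSO, a 1.68-fold increase (log2 fold change 0.75 ± 0.04 SE, adjusted p = 1.8e-12). The groups were far apart, and the 2 DAPT libraries differed by less than the 2 DMSO libraries. With apicidin Gata3 stood at 3298 and 3250.5 against 2008 and 2302, a 1.52-fold increase (0.61 ± 0.05, adjusted p = 1.2e-07). The apicidin controls were the less even pair, and both lay below both treated libraries. After Hdac3 knockdown the values were 2523 and 2419 against 2167 and 2192, a rise of 1.13-fold (0.18 ± 0.05, adjusted p = 0.0017). The pairs again did not overlap, but the gap between them was smaller than in the other experiments. An antisense transcript, Gm13256, overlaps 4.82% of the exonic bases of Gata3 in the annotation used here, and the strand setting of the counts is not given in the sources used here.

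Ikzf1 and Ikzf2 rose in each experiment, and Ikzf3 rose in those with DAPT and apicidin. Ikzf1, which encodes Ikaros and had the most reads of any member with DAPT, stood at 19413 and 19396 with DAPT against 13783 and 14241 (0.47 ± 0.04, adjusted p = 3.7e-10). It stood at 12603 and 12711 with apicidin against 10439 and 10581 (0.27 ± 0.04, adjusted p = 8.8e-05). The shHdac3 libraries stood at 12520.1 and 12013 and the scrambled ones at 9784 and 9764 (0.33 ± 0.05, adjusted p = 8.5e-08). The lowest treated library was above the highest control library in every experiment.

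Ikzf2, which encodes Helios, rose under all 3 treatments, and none of the pairwise differences between its changes passed. Its values were 3204 and 3159 with DAPT against 2165 and 2274 (0.52 ± 0.04, adjusted p = 1.4e-09), 2347 and 2330.1 with apicidin against 1642 and 1471 (0.59 ± 0.05, adjusted p = 1.1e-07), and 2523 and 2637 with shHdac3 against 1899 and 1858 (0.46 ± 0.05, adjusted p = 6.4e-11). Treated and control libraries did not overlap in any experiment. An opposite-strand gene covers 1.51% of its exonic bases.

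Ikzf3, which encodes Aiolos, stood at 2452 and 2557 with DAPT against 1910.3 and 1984 (0.36 ± 0.05, adjusted p = 7.5e-07). With apicidin it stood at 1387 and 1291 against 1196 and 1195 (0.16 ± 0.05, adjusted p = 0.02). Leaving out apicidin replicate 1 ended that call (adjusted p = 0.25), and in the authors' deposited table its adjusted p was 0.18. With shHdac3 the values were 1509 and 1398 against 1379 and 1332 (0.10 ± 0.05, adjusted p = 0.14), and they passed without shHdac3 replicate 2 (0.15, adjusted p = 0.042). Its 2 shHdac3 libraries differed from each other by more than the lower one differed from the controls.

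Bcl11b rose with DAPT and did not pass in the other experiments. It stood at 11683 and 11764 with DAPT against 9719 and 10073 with DMSO, a 1.18-fold rise (0.24 ± 0.04, adjusted p = 8e-06). With apicidin it stood at 8231 and 7955 against 7623 and 8116 (0.04 ± 0.04, adjusted p = 0.50), and the groups overlapped. With shHdac3 it stood at 8051 and 7716 against 8209 and 8750.1 (-0.10 ± 0.05, adjusted p = 0.062), with both treated libraries just under both controls. The latter passed as lower with edgeR's quasi-likelihood test (-0.11, adjusted p = 0.045), with upper-quartile scaling (-0.14, adjusted p = 0.0053) and without scrambled replicate 1 (-0.15, adjusted p = 0.028).

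Among the RUNX genes, Runx1 did not pass in any experiment and Runx3 rose with DAPT. Runx1, the more abundant of the pair per kilobase, stood at 2887 and 2850 with DAPT against 2705 and 2746 (0.07 ± 0.04, adjusted p = 0.16). It stood at 2013 and 1975 with apicidin against 1765 and 1949 (0.10 ± 0.05, adjusted p = 0.11), and at 2377 and 2322 with shHdac3 against 2251 and 2285 (0.05 ± 0.05, adjusted p = 0.41). In each experiment both treated libraries were above both controls, by less than these tests could call. Runx1 passed with DAPT under upper-quartile scaling (0.11, adjusted p = 0.031), and with apicidin without DMSO replicate 2 (0.18, adjusted p = 0.0063).

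Runx3, the least abundant measured member, stood at 686 and 709 with DAPT against 537 and 599 (0.30 ± 0.07, adjusted p = 0.0017). With apicidin it stood at 493 and 505 against 451 and 454 (0.14 ± 0.07, adjusted p = 0.14). With shHdac3 it stood at 525 and 526 against 427 and 483 (0.21 ± 0.08, adjusted p = 0.029). The scrambled libraries were the uneven pair. The shHdac3 call was lost with upper-quartile scaling (0.17, adjusted p = 0.080) and with no filter on low values (adjusted p = 0.073). It was also lost without shHdac3 replicate 1 (adjusted p = 0.076), without shHdac3 replicate 2 (0.078) or without scrambled replicate 1 (0.12, adjusted p = 0.37), and in the authors' deposited table its adjusted p was 0.27.

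Cbfb, the gene for the RUNX partner CBFβ, was the only member with calls in both directions. It stood at 2546 and 2662 with apicidin against 2978 and 3178, a decrease to 0.846 of control (-0.24 ± 0.05, adjusted p = 0.00048). It stood at 4282 and 4081 with shHdac3 against 3318 and 3520.4, a 1.22-fold rise (0.29 ± 0.05, adjusted p = 1e-06). The apicidin libraries lay below their controls and the shHdac3 libraries above theirs, without overlap. With DAPT it stood at 6828 and 7461 against 6173 and 6770 (0.14 ± 0.05, adjusted p = 0.014), and here the lower DAPT library was only just above the higher DMSO library. The DAPT call was lost without DAPT replicate 2 (0.08, adjusted p = 0.33) or without DMSO replicate 1 (0.08, adjusted p = 0.10).

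Myb rose most with Hdac3 knockdown. It stood at 17683 and 16442 with shHdac3 against 11124 and 12010 in the scrambled controls, a 1.48-fold rise (0.56 ± 0.05, adjusted p = 3.1e-13). The gap between the pairs was larger than the spread within either. With apicidin it stood at 10649 and 10491 against 11112 and 10990.2 (-0.06 ± 0.04, adjusted p = 0.25). With DAPT it stood at 13560 and 13641 against 12553 and 12699 (0.11 ± 0.04, adjusted p = 0.017). The DAPT call was lost without DAPT replicate 1 (adjusted p = 0.13), without DAPT replicate 2 (0.17) and in the fit of all 12 libraries (0.073). A gene on the opposite strand, Gm26577, overlaps 13.0% of the exonic bases of Myb, and without strand in the counting their reads could not be separated.

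**Figure D3:**
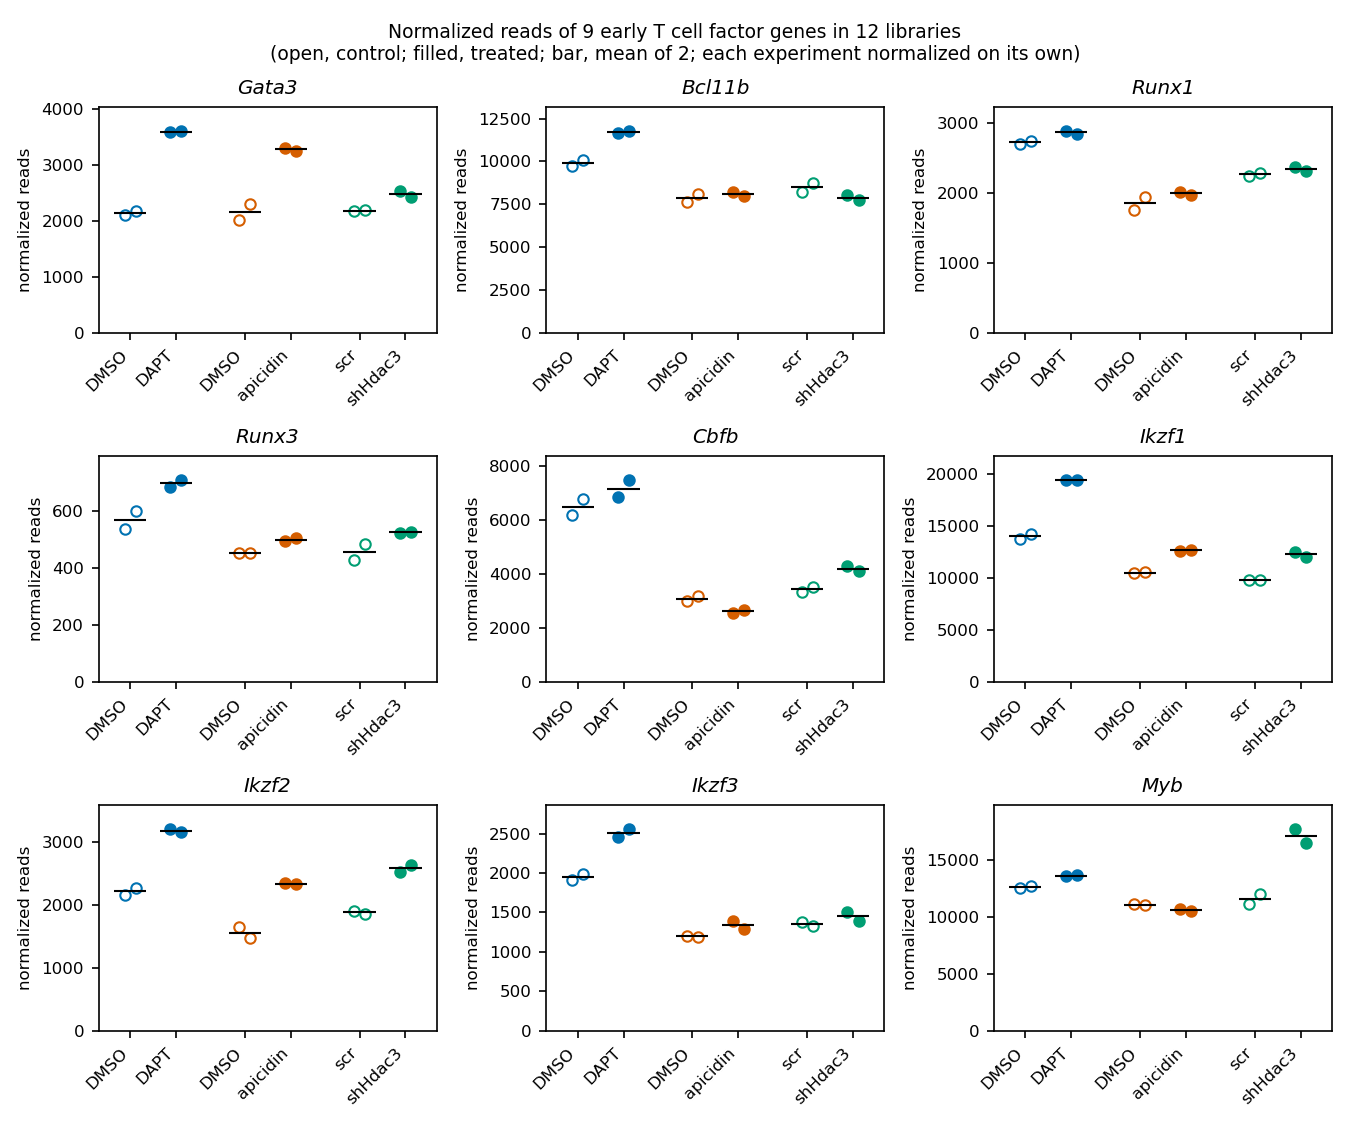
Normalized reads of the 9 measured genes in each of the 12 libraries, with control libraries as open points, treated ones as filled points and the mean of 2 as a bar; levels are comparable within an experiment only. Myb rises from 11124 and 12010 to 17683 and 16442 reads with shHdac3, and Cbfb falls with apicidin but rises with shHdac3.

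Whether the treatments differed in their effect on a gene was tested as the difference between 2 log2 fold changes, in 1 limma fit of all 12 libraries after common scaling. The apicidin response minus the shHdac3 response passed for 3 of the 9 members, where 33.4% of 13042 genes passed. Myb differed by -0.62 ± 0.06 (adjusted p = 4.8e-08), Cbfb by -0.53 ± 0.07 (adjusted p = 7.4e-06) and Gata3 by 0.43 ± 0.07 (adjusted p = 5.3e-05). Thus Gata3 rose more with the inhibitor than with the hairpin, and the changes of Myb and Cbfb were higher with the hairpin. The inhibitor was applied for 24 h and the hairpin cells were sampled 96 h after puromycin, so agent and time cannot be told apart. Bcl11b missed at 0.15 ± 0.06 (adjusted p = 0.060), and passed with TMM scaling (0.17, adjusted p = 0.039), with edgeR (0.16, adjusted p = 0.040), without DMSO replicate 2 of the apicidin experiment (0.19, adjusted p = 0.027) and without scrambled replicate 1 (0.20, adjusted p = 0.025). Ikzf2, at 0.14 ± 0.07 (adjusted p = 0.14), passed without DMSO replicate 1 of the apicidin experiment (0.22, adjusted p = 0.019).

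The DAPT response minus the shHdac3 response passed for 5 of 9 members, against 43.8% of all genes. It was 0.56 ± 0.07 for Gata3 (adjusted p = 7.1e-07), 0.34 ± 0.06 for Bcl11b (adjusted p = 6.6e-05), 0.26 ± 0.07 for Ikzf3 (adjusted p = 0.0057) and -0.46 ± 0.06 for Myb (adjusted p = 1.5e-06). For Ikzf1 it was 0.14 ± 0.05 (adjusted p = 0.046), a call lost in 8 of 12 cases when 1 library was left out (either DAPT or apicidin library, either scrambled library, DMSO replicate 1 of the DAPT experiment or shHdac3 replicate 2, adjusted p up to 0.17) and with the replicate number as a block (0.059). Cbfb, at -0.15 ± 0.07 (adjusted p = 0.093), passed without DAPT replicate 2 (-0.22, adjusted p = 0.032), without DMSO replicate 1 of that experiment (-0.23, adjusted p = 0.021) and with the block (adjusted p = 0.044).

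The DAPT response minus the apicidin response also passed for 5 of 9, against 34.8% of all genes. It was 0.37 ± 0.07 for Cbfb (adjusted p = 0.00035) and 0.19 ± 0.05 for Ikzf1 (adjusted p = 0.0082), and both passed whichever library was left out. It was 0.19 ± 0.06 for Bcl11b (adjusted p = 0.016), 0.19 ± 0.07 for Ikzf3 (adjusted p = 0.046) and 0.16 ± 0.06 for Myb (adjusted p = 0.045). The Bcl11b call was lost without DAPT replicate 2, apicidin replicate 2, DMSO replicate 1 of the DAPT experiment or DMSO replicate 2 of the apicidin experiment (0.15 to 0.19, adjusted p up to 0.084). The Ikzf3 call was lost without either DAPT library, DMSO replicate 1 of the DAPT experiment, apicidin replicate 2 or either DMSO library of the apicidin experiment (adjusted p up to 0.21). The Myb call was lost without any 1 of the 8 libraries of these 2 experiments (adjusted p up to 0.12). For Gata3 it was 0.13 ± 0.07 (adjusted p = 0.17), which passed without DMSO replicate 1 of the apicidin experiment (0.22, adjusted p = 0.010). Runx1 and Runx3 did not pass in any of the 3 differences, with estimates of -0.06 to 0.14.

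**Figure D4:**
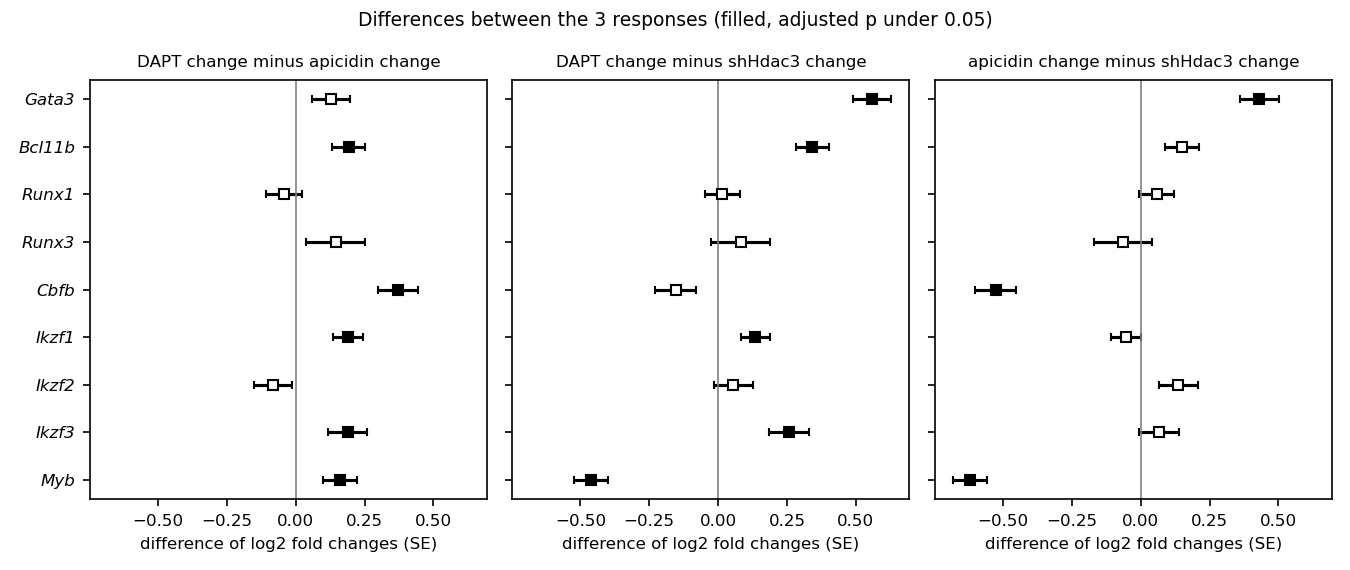
Difference between the log2 fold changes of 2 treatments for each of the 9 genes, with its SE, from a fit of all 12 libraries; filled squares passed an adjusted p of 0.05. Myb lies at -0.46 and -0.62 in both panels that subtract the shHdac3 change, and Gata3 lies at 0.56 and 0.43.

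In 4 lists of related genes, the share called is given beside the 43.2%, 38.1% and 41.9% of all genes called with DAPT, apicidin and shHdac3. All genes tested include those near 10 normalized reads, where the SE is large (Tle4 with DAPT, 0.42 ± 0.50). No share among genes of like level was computed, so a higher share is not read as particular to a list. Among relatives and partners of these factors the share called was 46.2%, 38.5% and 33.3%, near or below the shares of all genes. Of 13 tested with DAPT, 5 rose and 1 fell (median 0.10). Tle3, a Groucho corepressor gene, fell from 11808 ± 95.1 to 6962 ± 49.1 (SD, n = 2; -0.76 ± 0.04). Runx2 (0.65 ± 0.16), the ETO family corepressor gene Cbfa2t3 (0.60 ± 0.10) and the erythroid factor gene Gata1 (0.43 ± 0.12) rose. With apicidin 3 of 13 rose and 2 fell (median -0.09), with Tle3 (-0.16 ± 0.05) and Cbfa2t3 (-0.21 ± 0.07) lower and the LIM cofactor gene Ldb1 (0.12 ± 0.04) higher. Hdac7 was higher with apicidin (0.16 ± 0.05) and with DAPT (0.19 ± 0.04). With shHdac3 4 of 12 rose and none fell (median 0.14). Mybl2 rose from 2210 ± 50.8 to 3337 ± 46.3 (SD, n = 2; 0.59 ± 0.05), followed by Mybl1 (0.30 ± 0.11), Cbfa2t3 (0.21 ± 0.07) and the GATA cofactor gene Zfpm1 (0.17 ± 0.05). Mybl1 and Mybl2 are the other genes of the MYB family. Mybl2 was at -0.08 ± 0.04 with DAPT (adjusted p = 0.098) and -0.09 ± 0.04 with apicidin (adjusted p = 0.14), whereas Mybl1 also rose with DAPT (0.23 ± 0.09).

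Among 21 tested genes of other T lineage transcription factors, 13 rose and 4 fell with DAPT (median 0.23), 10 rose and 6 fell with apicidin (median 0.14), and 8 rose and 7 fell with shHdac3 (median 0.01). The share called was 81.0%, 76.2% and 71.4%. Sox13, a factor of γδ T cells, rose in all 3, by 1.31 ± 0.06, 0.83 ± 0.06 and 0.83 ± 0.06 on the log2 scale. Hes1, a Notch target gene, fell in all 3 (-1.74 ± 0.09, -0.23 ± 0.08 and -0.78 ± 0.07), as did Ets2 (-0.50 ± 0.04, -0.45 ± 0.04 and -0.83 ± 0.05). Lef1 fell with DAPT (-0.99 ± 0.04) and was at -0.02 ± 0.04 and 0.03 ± 0.05 with apicidin and shHdac3. Foxo1 rose with apicidin (0.82 ± 0.07) and shHdac3 (0.17 ± 0.07). Zbtb7b, the gene of ThPOK, rose with DAPT (0.74 ± 0.20) and apicidin (0.89 ± 0.24) and fell with shHdac3 (-1.09 ± 0.22). Its means were low, at 71.6 against 42.6, 67.6 against 36.7 and 39.4 against 83.8 normalized reads. Egr1 fell with shHdac3 (-0.99 ± 0.22), also at low levels (38.8 against 78.4).

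Genes on a list drawn up for alternative fates restrained during commitment moved in both directions, and not every gene on it was restrained here. Of 20, 11 were tested in each experiment, and Pax5, Ebf1 and Cebpa were at 0 in all libraries. With DAPT 5 rose and 1 fell (median 0.21), with apicidin 4 rose and 4 fell (median -0.01), and with shHdac3 3 rose and 4 fell (median -0.12). The share called was 54.5%, 72.7% and 63.6%. Kit, the stem cell factor receptor gene, rose from 1195 ± 16.4 to 2566 ± 45.6 with DAPT (1.10 ± 0.05) and from 1450 ± 34.0 to 2840 ± 6.57 with shHdac3 (SD, n = 2; 0.97 ± 0.05), and it rose by 0.34 ± 0.06 with apicidin. Il2rb, the IL-2 receptor beta chain gene, was higher with DAPT (0.91 ± 0.15) and shHdac3 (0.85 ± 0.13) and lower with apicidin (-0.70 ± 0.15). Dntt, the gene of terminal transferase, is on this list although the control libraries already held it at high levels. Its mean was 31858 and 22027 in the DMSO libraries of the DAPT and apicidin experiments and 30178 in the scrambled ones. Its changes are therefore not those of a restrained gene. Dntt rose with DAPT (0.50 ± 0.04) and fell with apicidin (-0.53 ± 0.05) and shHdac3 (-0.49 ± 0.05). Id2 rose in all 3 (0.46 ± 0.04, 0.36 ± 0.05 and 0.29 ± 0.05), and Zbtb16 rose with apicidin (0.38 ± 0.14). Gfi1b fell with apicidin (-2.64 ± 0.37, at low levels) and shHdac3 (-1.93 ± 0.13), and Cebpb fell with shHdac3 (-0.57 ± 0.19). Kit is also expressed in mast cells, whose marker sums were given above.

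Of 32 genes known as targets of these factors, 15 rose and 15 fell with DAPT (median 0.11), 8 rose and 18 fell with apicidin (median -0.23), and 8 rose and 15 fell with shHdac3 (median -0.17). The share called was 93.8%, 81.2% and 71.9%. The list also holds Ptcra and Hes1, named above as Notch target genes, and the Notch receptor genes Notch1 and Notch3. Its share with DAPT is therefore not that of these factors' targets alone. Ptcra fell in all 3, with log2 fold changes of -2.32, -1.67 and -1.23, and so did the Notch regulator gene Dtx1, with -3.05, -0.66 and -0.55. The IL-2 receptor alpha gene Il2ra fell with DAPT (-1.78 ± 0.08) and apicidin (-0.76 ± 0.10). The recombinase genes Rag1 (-0.55 ± 0.04, -0.92 ± 0.05 and -0.69 ± 0.05) and Rag2 fell in all 3. Rag2 stood at 410.2, 315 and 437 on average with DAPT, apicidin and shHdac3 against 908, 632 and 599. The IL-7 receptor gene Il7r fell with apicidin (-0.88 ± 0.10) and rose with DAPT (0.36 ± 0.08) and shHdac3 (0.55 ± 0.07). Cd4, whose silencer is bound by RUNX factors, fell from 4929 ± 1.96 to 2110.2 ± 70.3 with shHdac3 (SD, n = 2; -1.22 ± 0.05). It was higher with DAPT (0.46 ± 0.04) and lower with apicidin (-0.35 ± 0.04). The cyclin gene Ccnd2 fell with shHdac3 (-0.84 ± 0.07) and rose with DAPT (0.37 ± 0.07) and apicidin (0.38 ± 0.08). Bcl2, an antiapoptotic gene known as a MYB target, rose in all 3 (0.40 ± 0.08, 0.51 ± 0.10 and 0.34 ± 0.09). Myb itself did not pass with apicidin (-0.06 ± 0.04, adjusted p = 0.25, limma), and a link between the 2 genes was not tested. The lists were compiled from known biology with earlier results in view, and these shares are descriptions without a test.

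The genes most like a member were those with the smallest Euclidean distance over the 3 log2 fold changes, among 9191 others with a mean of at least 100 normalized reads in each experiment. Gata3 was followed most closely by Arhgap20 (distance 0.086), Slc37a3 (0.089) and Meis3 (0.11), and Ikzf1 by Prex1 (0.048), Plekho2 (0.055) and Znrf2 (0.060). Nearest to Myb were Il17rb (0.053), Donson (0.056) and Pknox1 (0.100). Bcl11b had Cux1 (0.030), Sipa1l2 (0.032) and Slc6a6 (0.033) as neighbours, and Runx1 had Prr14 (0.010), Tm7sf3 (0.015) and Mettl23 (0.018). The distances given for Bcl11b and Runx1 were below the SE of any 1 of their log2 fold changes (0.04 to 0.05), so these ranks are not resolved. These distances describe the 12 libraries, and shared regulation was not tested.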

How the data were processed

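The authors deposited 1 table per experiment. Per the file headers, each table holds for 4 libraries a normalized signal per gene symbol, a log2 fold change, its SE, a test score (stat), a p-value and an adjusted p-value. Deposited signal is a read number over the library's size factor, and 100% of values were whole multiples of the value of 1 read, within 1e-06. The labels' protocols name a stranded total RNA kit with ribosomal depletion. Per the submitters' processing notes, build mm9, FastQC, Bowtie2, TopHat and DESeq2 were used, without versions. Counter, annotation and strand setting: not given in the sources used here.

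Each comparison was tested on log2(signal + 1) with limma 3.58.1 in R 4.3.3 (trended prior), for genes at 10 or more in at least 2 of 4 libraries, without covariates, two-sided, with Benjamini-Hochberg adjustment at 0.05. The pseudocount understates changes of low genes. Differences between responses used all 12 libraries after common size factors (DESeq2 1.42.0). Alternatives included edgeR 4.0.16 on recovered reads. Scripts were tested on simulated data. Exon lengths and overlaps came from GENCODE M21 (GRCm38), used without coordinates because the reads were mapped to mm9. Promoters came from RefSeq. No label says that replicates were separate cultures. The p-values therefore reflect only how these libraries vary, possibly for technical reasons. Replicate libraries differed by more than sampling noise (chi-square per degree of freedom 3.47 to 19.0). This figure is a mean over genes, to which very abundant RNAs can add much. Rn45s, for example, held 2.39% and 1.48% of reads in the DMSO libraries of the DAPT experiment. The gene lists, like the members, were chosen with earlier results of these data known. All members were named. From each list up to 4 genes with the largest change past 0.05 and a mean of at least 50 were taken, and the text adds Bcl2 and the values of named genes in the other experiments, chosen after their values were seen. Spi1 is listed under its older symbol Sfpi1. Some values that the rule allows are not reported here.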

Additional observations from a re-analysis of the deposited data

Results flagged for a closer look

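Groups of 2 libraries are too small to look for a single deviating sample, so the results listed here are those in which 2 treatments differed in their effect on a gene by a direct test. For the apicidin response minus the shHdac3 response these were Gata3 (0.43), Cbfb (-0.53) and Myb (-0.62), on the log2 scale. For the DAPT response minus the shHdac3 response they were Gata3 (0.56), Bcl11b (0.34), Ikzf1 (0.14), Ikzf3 (0.26) and Myb (-0.46). For the DAPT response minus the apicidin response they were Bcl11b (0.19), Cbfb (0.37), Ikzf1 (0.19), Ikzf3 (0.19) and Myb (0.16). Cbfb is the one gene with calls in both directions, lower with apicidin and higher with DAPT and shHdac3. Agent and experiment cannot be told apart in any of these differences, nor can time in those that involve the hairpin, since DAPT and apicidin were both given for 24 h.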

How the results depend on the processing

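Gata3, Ikzf1 and Ikzf2 with each treatment, Bcl11b, Runx3 and Ikzf3 with DAPT, and Cbfb and Myb with shHdac3 kept direction and call under all 15 alternatives run, as did Cbfb with apicidin. Of 405 alternative fold changes of members, 385 kept direction and side of the threshold, 13 lost the call, 6 gained one and 1 changed sign: Bcl11b with apicidin, -0.0044 without DMSO replicate 1 and up to 0.086 when another library was left out. Of 432 alternative differences between responses, 387 kept both, 28 lost the call, 9 gained one and 8 changed sign. Those 8 concern Runx1, Runx3 and Ikzf2, and none was past the threshold. With 1 library left out, DAPT minus shHdac3 ran from -0.0012 to 0.032 for Runx1 (-0.00099 without DMSO replicate 1) and from -0.0098 to 0.17 for Runx3 (-0.0032 without DMSO replicate 1). Apicidin minus shHdac3 ran from -0.011 to 0.13 for Runx1 and from -0.15 to 0.028 for Runx3. DAPT minus apicidin ran from -0.11 to 0.027 for Runx1 and from -0.16 to 0.00020 for Ikzf2. The authors' adjusted p called 2465 genes with apicidin and 2961 with shHdac3, where limma called 4746 and 5228; the cause was not tested. The members past the threshold in the DAPT minus apicidin difference numbered 2 to 5 when 1 library was left out.

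The replicate numbers of the titles were not shown to pair the libraries: same-numbered libraries deviated together with a correlation of 0.019, 0.039 and 0.011 in the DAPT, apicidin and hairpin experiments. In the fits with a replicate block 8, 5 and 6 members passed, the same numbers as without it, and 5978, 4811 and 5327 genes. With the block 3 members passed in apicidin minus shHdac3, 5 in DAPT minus shHdac3 and 4 in DAPT minus apicidin. In the last of these Myb had an adjusted p of 0.057 (limma). The share of all genes passing in these block fits of differences was not recorded. Without the block it was 33.4%, 43.8% and 34.8% in the same order, so these counts are not read as particular to the members. The lowest measured member, Runx3, had 397 to 766 reads per library.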

Other observations

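The DMSO libraries of the DAPT and apicidin experiments carry the same label for treatment and time. On the common scale of all 12 libraries, the measured members differed between them, except Runx1 (adjusted p = 0.080, limma) and Ikzf3 (adjusted p = 0.40). Cbfb stood at 4566 and 5046 in the DMSO libraries of the DAPT experiment and at 3478 and 3700 in those of the apicidin experiment (log2 difference 0.42 ± 0.05, adjusted p = 2.9e-07, limma). Gata3 was lower in the former, at 1558 and 1616 against 2345 and 2680.3 (-0.66 ± 0.05, adjusted p = 9.5e-11), as was Myb, at 9285 and 9465 against 12978 and 12795 (-0.46 ± 0.04, adjusted p = 3.7e-09). Of 13042 genes tested, 3785 were higher and 3432 lower in this comparison, 55.3% in all. Group and experiment cannot be told apart here, and this comparison was added after the data were seen. The Gata3 difference between the 2 sets of controls was larger in size than its rise with apicidin (0.61) and smaller than its rise with DAPT (0.75).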
